A study of Mus musculus with 12 samples.

Results

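The genes described here are 8 members of the necroptosis and caspase-8 pathway: Zbp1, Ripk3, Mlkl, Ripk1, Ripk2, Casp8, Fadd and Cflar. They were chosen by name and matched by mouse gene symbol to the Ensembl identifiers of the deposited expression table, which lists 54532 genes. All 8 matched once, and all 8 were among the 11335 genes that were tested because 3 or more of the 12 libraries reached 1 FPKM. FPKM is a read count divided by the exon length of the gene and by a denominator of the library. Expression was measured in bulk RNA from wild-type (WT) mouse bone-marrow-derived macrophages and from osteoclasts grown out of such macrophages, in 4 groups of 3 libraries. The marrow cells of all groups were expanded with CMG, a source of M-CSF. Osteoclasts also received RANKL, which the sample source gives as 100 ng/mL and the protocol as a range up to that dose. Untreated macrophages and untreated osteoclasts had no lipopolysaccharide (LPS), and the treated cells of both types received 100 ng/mL LPS for 3 h on day 5.

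Necroptosis is a lytic, caspase-independent form of cell death. The kinase RIPK3, engaged by RIPK1, by the adapter TRIF or by the nucleic acid sensor ZBP1, phosphorylates MLKL, and MLKL then assembles at the plasma membrane and breaks it. Caspase-8, brought in by the adapter FADD, holds this route in check by cleaving RIPK1 and RIPK3, and it can itself start apoptosis. The caspase-8 homologue cFLIP, encoded by Cflar, pairs with caspase-8, limits its apoptotic activity and takes part in the block on necroptosis. RIPK2 is a relative of RIPK1 that carries signals from the peptidoglycan sensors NOD1 and NOD2 and is not a part of the necroptotic machinery. LPS, from the outer membrane of Gram-negative bacteria, acts through TLR4, which uses TRIF among its adapters.

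The libraries held between 15651770 and 20281456 assigned reads. The labels do not say whether the replicates came from separate cultures or animals, so the p-values measure the spread between these libraries, which may be technical. The 10 osteoclast markers summed to between 29794 and 31237 FPKM in untreated osteoclasts against 16.3 to 20.5 FPKM in untreated macrophages, and all 10 reached a mean of 1 FPKM in osteoclasts. The 10 macrophage markers summed to between 13529 and 13589 FPKM in untreated macrophages and between 2865 and 3316 FPKM in untreated osteoclasts, where 8 of 10 reached a mean of 1 FPKM. The 6 stromal or osteoblast markers summed to between 26.6 and 36.8 FPKM in untreated macrophages, led by Col1a1, and to between 0.624 and 0.752 FPKM in untreated osteoclasts. The T cell marker Trac had a mean of 3.84 FPKM in untreated osteoclasts, where Cd3d and Cd3g were at 0. The part of these other cell types in the differences between macrophages and osteoclasts was not tested. Other marker sums moved with LPS, all given as FPKM, and the part of these in the LPS effects was not tested. In macrophages the osteoclast sum was 24.7 to 29.0 with LPS, above its range without it, where the mean of Acp5 went from 0.950 to 14.6. Of the 10 osteoclast markers in these cells, 3 were called higher with LPS and 4 lower, where 69.9% of all genes tested were called. The macrophage sum was 16074 to 16513 with LPS, also above its range without it. The 4 dendritic cell markers summed to 0.0581 to 0.107 without LPS and 0.473 to 0.665 with it in macrophages, and to 0.559 to 0.595 and 0.991 to 1.46 in osteoclasts. The 4 T cell markers summed to 0.0461 to 0.182 without LPS in macrophages and were at 0 in every library with it, and to 3.73 to 3.96 and 2.92 to 3.40 in osteoclasts. The 4 B cell markers summed to 0.948 to 1.14 without LPS and 0.501 to 0.947 with it in macrophages. The 7 neutrophil markers overlapped between treated and untreated libraries, at 4.46 to 6.64 without LPS and 5.54 to 12.7 with it in macrophages, with S100a9 called higher (log2 change 0.83, adjusted p = 0.0129) and S100a8 not, and at 0.247 to 0.699 and 0.569 to 1.76 in osteoclasts. The stromal sum was 29.1 to 35.0 with LPS in macrophages, a range inside that without it, and 0.863 to 1.55 in osteoclasts, above that without it.

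The LPS-treated osteoclast libraries differed more from each other than those of any other group, by a chi-square of read counts divided by its degrees of freedom. It was 11.55 for replicates 1 and 2, 8.08 for 2 and 3 and 7.36 for 1 and 3, and at most 5.90 in the other groups. The 10 macrophage markers summed to 2757 FPKM in replicate 2, against 3615 and 3331 FPKM in replicates 1 and 3, and 8 of the 10 were lowest there. Zbp1, Ripk2, Cflar and Mlkl were also lowest there within the group. Their LPS effects in osteoclasts were called without this library too. The log2 changes without it were 1.78 for Zbp1, 1.90 for Ripk2, 0.92 for Cflar and 0.47 for Mlkl, against 1.64, 1.74, 0.85 and 0.44 with it.

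Gene positions below are those of GENCODE M21 on GRCm38. Cflar (ENSMUSG00000026031, chr1:58711508-58758884) and Casp8 (ENSMUSG00000026029, chr1:58795374-58847503) are neighbours on the plus strand, with 36489 bases between the end of Cflar and the start of Casp8. Ripk1 (ENSMUSG00000021408) lies at chr13:34002363-34037147 on the plus strand. The other genes are on the minus strand: Ripk2 (ENSMUSG00000041135) at chr4:16122733-16163647, Ripk3 (ENSMUSG00000022221) at chr14:55784995-55788865, Mlkl (ENSMUSG00000012519) at chr8:111311797-111338177, Zbp1 (ENSMUSG00000027514) at chr2:173206612-173218923 and Fadd (ENSMUSG00000031077) at chr7:144577318-144582463. All are protein-coding genes, and the values are per gene, so isoforms such as the long and short forms of cFLIP are not separated. Exons of Fadd share 239 bases with the antisense gene Faddos, which had between 1 and 9 reads in all per group. Exons of Ripk1 share 241 bases with the antisense gene Serpinb6a, whose group means were between 64.6 and 85.2 FPKM, and 511 bases with Gm17084 on the same strand, which had 0 reads in every library. No source used here says whether counting used the strand, so reads from the shared bases cannot be told apart.

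RefSeq promoter sequences on GRCm38.p6 were at hand for 6 of the 8 genes, with 7 promoters because Ripk1 has a pair of start sites; those of Zbp1 and Ripk2 were not. The bases before the start of Cflar and of Casp8 are shown because these neighbouring genes, whose products form 1 complex, rose 13.7-fold and 1.46-fold with LPS in macrophages. The RefSeq start of Casp8, at chr1:58802502, lies 7128 bases downstream of the GENCODE gene start given above and is the start of another GENCODE transcript of the gene, so its 250 bases lie within the gene, with 0 of them in GENCODE exons. The bases before the upstream start of Casp8 were not analysed here. The RefSeq start of Cflar is 17 bases before its GENCODE start. The 250 bases before each RefSeq start, on the plus strand and 5′ to 3′, read as follows.
Cflar, chr1:58711241-58711490: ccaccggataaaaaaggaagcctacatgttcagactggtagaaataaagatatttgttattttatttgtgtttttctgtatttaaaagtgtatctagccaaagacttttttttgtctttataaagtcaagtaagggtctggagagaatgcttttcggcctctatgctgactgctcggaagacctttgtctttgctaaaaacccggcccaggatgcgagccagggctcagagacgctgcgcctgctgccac
Casp8, chr1:58802252-58802501: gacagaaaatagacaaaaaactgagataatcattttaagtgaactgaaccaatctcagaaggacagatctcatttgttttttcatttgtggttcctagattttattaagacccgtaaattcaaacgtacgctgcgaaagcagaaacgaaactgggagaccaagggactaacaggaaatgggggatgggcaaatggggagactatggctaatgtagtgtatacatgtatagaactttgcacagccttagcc
In the window from 250 bases before to 50 bases after the start, 3 motifs were searched on both strands. These were the interferon-stimulated response element (GAAA, 2 bases of any kind, GAAA), the kappa-B element (GGGA, 4 bases of any kind, CC) and the gamma-activated sequence (TTC, 3 bases of any kind, GAA). The first was present in 3.44% of all 32851 mouse promoters, the next in 20.7% and the last in 8.30%. Among the 7 promoters, the interferon-stimulated element was found in that of Cflar, on the minus strand at bases 7 to 16 after the start, and in the promoter of the downstream start of Ripk1, on the plus strand from base -5 to base 5. The kappa-B element was found in 0 of the 7. The gamma-activated sequence was found in the promoter of the downstream start of Ripk1 only, from base -108 to -100 and from base -11 to -3, and the latter overlaps the interferon-stimulated match. The matches are shown here in capitals within 30 bases of the plus strand, and a match is a sequence description, not evidence of binding.
Cflar, chr1:58711487-58711516, interferon-stimulated element on the minus strand: ccacgtctgcTTTCGGTTTCtgggcgtctc
Ripk1, chr13:34002859-34002888, interferon-stimulated element: aacgttcccgGAAATCGAAAagcgcggaac
Ripk1, chr13:34002756-34002785, gamma-activated sequence: agaagctggtTTCCCGGAAggggcggaggc
Ripk1, chr13:34002853-34002882, gamma-activated sequence: acttcaaacgTTCCCGGAAatcgaaaagcg

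In macrophages, LPS raised Zbp1, Cflar, Ripk2, Mlkl, Ripk1 and Casp8 and lowered Fadd, whereas Ripk3 did not pass the test. In osteoclasts, LPS raised Zbp1, Ripk2, Cflar and Mlkl, each by less on the log2(FPKM + 1) scale than in macrophages, and no member was called lower as deposited. Changes were tested with limma on log2(FPKM + 1), with p-values adjusted by Benjamini-Hochberg over all genes tested, and a gene with an adjusted p under 0.05 was called. In macrophages 7 of the 8 genes were called, where 69.9% of all genes tested were, 36.8% above 0 and 33.1% below. Treated and untreated libraries were apart for 7 members too, against 74.0% of all genes. The median log2 change of the 8 genes was 1.51, and that of all genes tested 0.02. In osteoclasts 4 of the 8 were called, all higher with LPS, where 17.7% of all genes were called, 11.1% above 0 and 6.59% below. There the libraries of 5 members did not overlap, against 34.0% of all genes, and the median of the members was 0.33 against 0.01 for all genes. Fewer cells of a type and less RNA per cell cannot be told apart in such bulk samples.

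The deposited values are scaled so that the typical gene is level between libraries, and their sums per library differ, from 255852 FPKM to 408994 FPKM. Rescaling every library to the same total (TPM) moved the median log2 change of all genes with LPS in macrophages to -0.55, and quantile normalization to -0.14. Of the genes called in macrophages, 52.6% were above 0 as deposited, 18.5% after rescaling to TPM, 37.0% after quantile normalization and 64.2% among genes whose mean was 5 FPKM or more. In osteoclasts these shares were 62.8% as deposited, 43.5% with TPM and 38.5% with quantile normalization. Of the members, Zbp1, Cflar, Ripk2 and Mlkl rose with LPS in both cell types under each of these scalings. Casp8, Ripk1 and Ripk3 in macrophages and Casp8 in osteoclasts were moved across a threshold or across 0, as given for each gene.

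**Figure D1:**
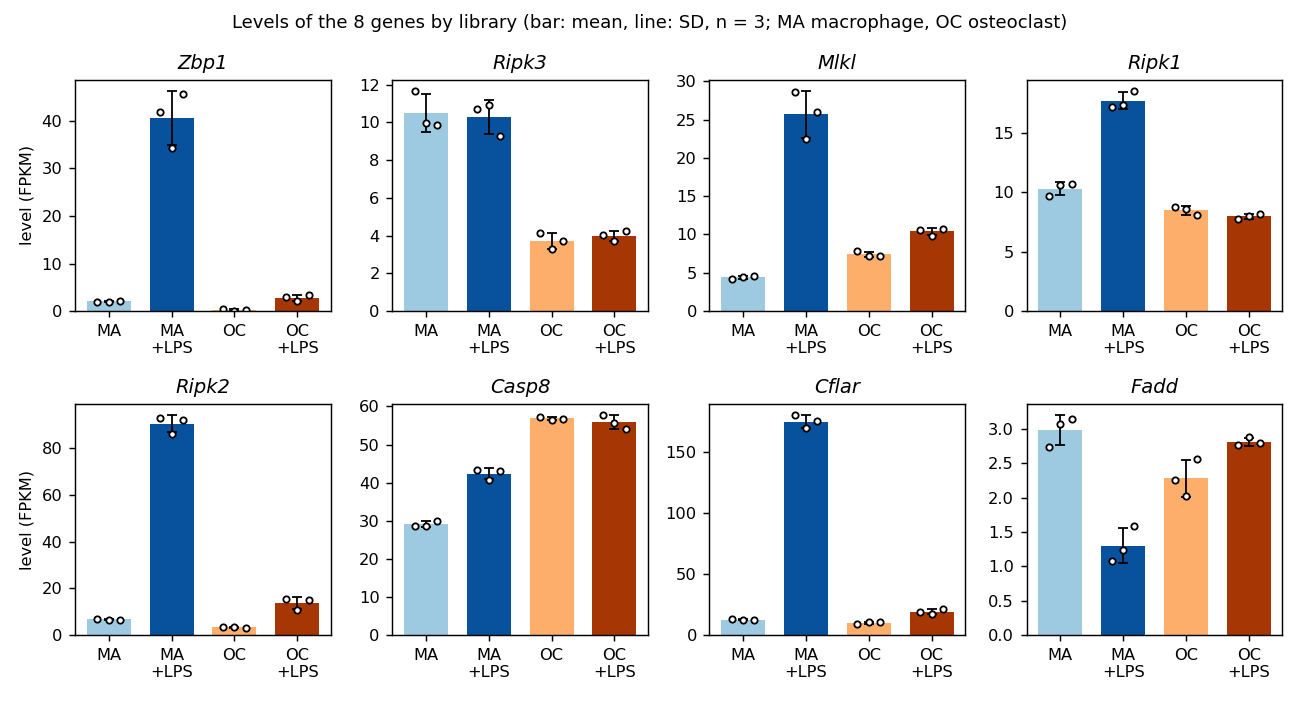
Level of each of the 8 genes in FPKM (vertical axes, each from 0 and with its own range) in macrophages (MA) and osteoclasts (OC) without and with LPS. Points are libraries, bars are means and lines are SD (n = 3 per group). Cflar, Ripk2 and Zbp1 stand highest in LPS-treated macrophages, Casp8 stands highest in osteoclasts of both groups and Fadd lowest in LPS-treated macrophages.

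Zbp1 encodes the sensor of Z-form nucleic acids that recruits RIPK3. Its levels in untreated macrophages were 1.99, 1.95 and 2.13 FPKM in replicates 1 to 3, and with LPS they were 41.9, 34.3 and 45.6 FPKM. Untreated osteoclasts had 0.338, 0 and 0.300 FPKM, from 22, 0 and 18 reads, and LPS-treated osteoclasts had 2.93, 2.10 and 3.35 FPKM. The 4 groups thus did not overlap except that the LPS-treated osteoclasts, with 2.10 FPKM at the lowest, reached into the range of the untreated macrophages. LPS raised Zbp1 by 3.77 on the log2(FPKM + 1) scale in macrophages (SE 0.14, adjusted p = 2.42e-10), which is 20.1-fold as a ratio of mean FPKM. In osteoclasts it raised Zbp1 by 1.64 (SE 0.14, adjusted p = 6.72e-06), or 13.1-fold as a ratio of means. Macrophages had 9.52 times the mean FPKM of osteoclasts without LPS (log2 difference of osteoclasts minus macrophages -1.33, adjusted p = 3.00e-06) and 14.5 times with LPS (log2 difference -3.46, adjusted p = 2.49e-10). The size of the Zbp1 effects moved with the setting: the osteoclast LPS effect was 2.47 with TPM, 3.45 with a pseudocount of 0.1 and 4.82 with voom, and the untreated difference was -2.51, -3.03 and -4.36.

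The value of 0 in untreated osteoclast replicate 2 stood apart. Of 11158 genes with at least 15 reads in each of the other untreated osteoclast libraries, Zbp1 was the only one with 0 reads there, and in the other 11 libraries no gene met the same criterion. A count of 3 reads in that library would be 0.0503 FPKM, which covers counting error only. Without it the mean of untreated osteoclasts was 0.319 FPKM and the LPS effect 8.76-fold. Subtracting the macrophage LPS effect on Zbp1 from the osteoclast one gave -2.13 in log2(FPKM + 1) units (SE 0.20, adjusted p = 2.49e-06), and -0.61 as the log2 ratio of the folds, or -1.20 for that ratio without replicate 2. This difference depended on how low values were treated. It was -1.04 (adjusted p = 0.0111) with TPM, -0.80 (adjusted p = 0.307) with a pseudocount of 0.1 and 0.51 (adjusted p = 0.656), in the opposite direction, with limma's voom on the recovered reads. Without replicate 2 it was -2.26 (adjusted p = 2.16e-06) as tested here, -1.49 (adjusted p = 3.81e-04) with a pseudocount of 0.1 and -1.22 (adjusted p = 0.0623) with voom.

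Ripk3 encodes the kinase that activates MLKL. Untreated macrophages had 11.7, 9.95 and 9.87 FPKM and LPS-treated macrophages 10.7, 10.9 and 9.25 FPKM. Untreated osteoclasts had 4.11, 3.28 and 3.72 FPKM and LPS-treated osteoclasts 4.01, 3.71 and 4.25 FPKM. The groups with and without LPS overlapped in both cell types, and every macrophage library was above every osteoclast library. The LPS effect was -0.03 (SE 0.09, adjusted p = 0.81) in macrophages and 0.09 (SE 0.09, adjusted p = 0.544) in osteoclasts. After rescaling to TPM the change in macrophages was -0.65 (adjusted p = 5.62e-05), and after quantile normalization -0.24 (adjusted p = 0.0238). Macrophages had 2.83 times the mean FPKM of osteoclasts without LPS (log2 difference -1.29, SE 0.09, adjusted p = 3.22e-08) and 2.58 times with LPS (log2 difference -1.18, adjusted p = 5.97e-08). The LPS effects of the cell types differed by 0.11 (SE 0.12, adjusted p = 0.46), or by 0.69 (adjusted p = 8.23e-04) after rescaling to TPM.

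Mlkl encodes the pseudokinase that executes necroptosis. Its levels were 4.14, 4.39 and 4.62 FPKM in untreated macrophages and 28.6, 22.5 and 26.0 FPKM in LPS-treated macrophages. They were 7.79, 7.22 and 7.20 FPKM in untreated osteoclasts and 10.6, 9.83 and 10.7 FPKM in LPS-treated osteoclasts. No groups overlapped, and the order of the cell types turned over with LPS. Without it osteoclasts had 1.69 times the mean FPKM of macrophages (log2 difference 0.64, SE 0.08, adjusted p = 6.96e-06), a log2 difference of 0.32 (adjusted p = 0.00223) with TPM. With it macrophages had 2.47 times that of osteoclasts (log2 difference -1.22, adjusted p = 1.17e-08). LPS raised Mlkl 5.86-fold in macrophages (log2 change 2.30, SE 0.08, adjusted p = 6.54e-11) and 1.40-fold in osteoclasts (log2 change 0.44, SE 0.08, adjusted p = 0.00165). The LPS effects differed by -1.86 (SE 0.11, adjusted p = 3.14e-08). Mlkl rose with LPS in the cells where its upstream kinase Ripk3 did not pass the test as deposited.

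Ripk1 encodes the kinase and scaffold that joins death receptors to RIPK3 and caspase-8. Untreated macrophages had 9.66, 10.6 and 10.7 FPKM and LPS-treated macrophages 17.2, 17.4 and 18.6 FPKM. Untreated osteoclasts had 8.78, 8.64 and 8.06 FPKM and LPS-treated osteoclasts 7.79, 7.98 and 8.16 FPKM. The macrophage groups were apart, and the osteoclast groups overlapped and lay below both. LPS raised Ripk1 1.72-fold in macrophages (log2 change 0.73, SE 0.05, adjusted p = 6.97e-08), which was 0.13 (adjusted p = 0.0554) after rescaling to TPM and 0.43 (adjusted p = 1.09e-05) after quantile normalization. In osteoclasts the change was -0.08 (SE 0.05, adjusted p = 0.318). The LPS effects differed by -0.81 (SE 0.07, adjusted p = 1.34e-06), or by -0.28 (adjusted p = 0.00797) with TPM. Macrophages had 1.22 times the mean FPKM of osteoclasts without LPS (log2 difference -0.25, adjusted p = 5.76e-04; -0.68 with TPM) and 2.22 times with LPS (adjusted p = 9.04e-10).

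Ripk2, the kinase of the NOD receptors, had 7.19, 6.78 and 6.59 FPKM in untreated macrophages and 92.7, 86.0 and 92.0 FPKM with LPS. In osteoclasts it had 3.56, 3.57 and 3.05 FPKM without LPS and 15.5, 10.7 and 15.2 FPKM with it. No groups overlapped, and LPS-treated macrophages were far above the rest. LPS raised Ripk2 13.2-fold in macrophages (log2 change 3.54, SE 0.11, adjusted p = 3.62e-11) and 4.07-fold in osteoclasts (log2 change 1.74, SE 0.11, adjusted p = 3.67e-07), and these effects differed by -1.80 (SE 0.15, adjusted p = 1.01e-06), or by -1.19 (adjusted p = 1.93e-05) with TPM. Macrophages had 2.02 times the mean FPKM of osteoclasts without LPS (log2 difference -0.84, adjusted p = 1.68e-05, and -1.35 with TPM) and 6.53 times with LPS (adjusted p = 2.44e-10).

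Casp8 encodes the initiator caspase of the death receptors. Untreated macrophages had 28.7, 28.6 and 29.97 FPKM and LPS-treated macrophages 43.2, 40.7 and 43.2 FPKM. Untreated osteoclasts had 57.2, 56.6 and 56.7 FPKM and LPS-treated osteoclasts 57.7, 55.7 and 54.2 FPKM. Every osteoclast library was above every macrophage library, and the osteoclast groups overlapped. Osteoclasts had 1.95 times the mean FPKM of macrophages without LPS (log2 difference 0.94, SE 0.04, adjusted p = 2.59e-10, and 0.54 with TPM) and 1.32 times with LPS (log2 difference 0.39, adjusted p = 8.69e-07, and 0.68 with quantile normalization). LPS raised Casp8 1.46-fold in macrophages (log2 change 0.53, SE 0.04, adjusted p = 9.38e-08), and in osteoclasts the change was -0.02 (SE 0.04, adjusted p = 0.714), or -0.12 (adjusted p = 0.0253) after quantile normalization. The rise in macrophages rested on the scaling: it was -0.11 (adjusted p = 0.0205) after rescaling to TPM and -0.0036 (adjusted p = 0.934) after quantile normalization. The LPS effects differed by -0.55 (SE 0.05, adjusted p = 2.93e-06) as deposited, by 0.0099 (adjusted p = 0.872) with TPM and by -0.12 (adjusted p = 0.0526) with quantile normalization.

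Fadd encodes the adapter between death domains and caspase-8. Its levels were low, from 54 to 281 reads per library. Untreated macrophages had 2.73, 3.06 and 3.14 FPKM and LPS-treated macrophages 1.08, 1.24 and 1.59 FPKM. Untreated osteoclasts had 2.25, 2.02 and 2.56 FPKM and LPS-treated osteoclasts 2.76, 2.88 and 2.79 FPKM. The LPS-treated macrophages were below all other libraries. LPS lowered Fadd in macrophages to 0.437 times the untreated mean (log2 change -0.79, SE 0.09, adjusted p = 4.58e-06). That change was -1.58 with TPM and -1.19 with voom. In osteoclasts the change was 0.22 (SE 0.09, adjusted p = 0.105), although treated and untreated libraries were apart. The LPS effects differed by 1.01 (SE 0.12, adjusted p = 1.95e-05), or by 1.79 with TPM, and as deposited Fadd was the only member whose called difference was above 0. Macrophages had 1.31 times the mean FPKM of osteoclasts without LPS (log2 difference -0.28, adjusted p = 0.0102), a call lost with quantile normalization (-0.15, adjusted p = 0.127) and -0.72 (adjusted p = 8.56e-05) with TPM. With LPS, osteoclasts had 2.16 times the mean FPKM of macrophages (log2 difference 0.73, adjusted p = 5.79e-06, and 1.11 with voom).

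Cflar, which encodes cFLIP, had 13.0, 12.8 and 12.4 FPKM in untreated macrophages and 179.8, 169 and 175 FPKM in LPS-treated macrophages. It had 9.43, 10.6 and 10.9 FPKM in untreated osteoclasts and 19.4, 17.6 and 21.3 FPKM in LPS-treated osteoclasts. No groups overlapped, and the untreated cell types lay close together. LPS raised Cflar 13.7-fold in macrophages (log2 change 3.68, SE 0.07, adjusted p = 4.24e-13) and 1.89-fold in osteoclasts (log2 change 0.85, SE 0.07, adjusted p = 2.35e-06). The difference of these effects, -2.83 (SE 0.09, adjusted p = 3.13e-10), was the lowest of the 8 genes. Macrophages had 1.24 times the mean FPKM of osteoclasts without LPS (log2 difference -0.28, adjusted p = 0.00188, and -0.71 with TPM) and 8.99 times with LPS (log2 difference -3.11, adjusted p = 7.88e-13).

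**Figure D2:**
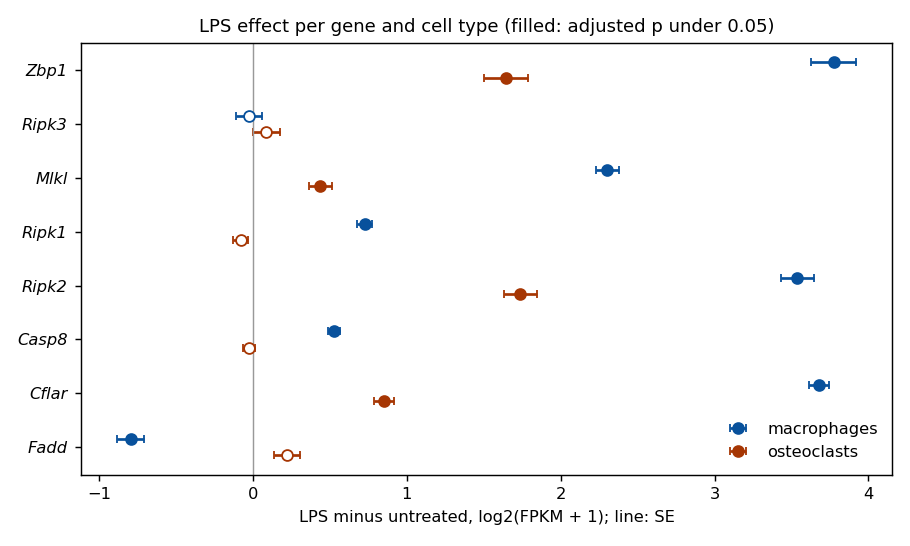
LPS effect on each gene in macrophages and in osteoclasts, as the difference of log2(FPKM + 1) between LPS-treated and untreated cells (horizontal axis). Points are limma estimates, lines are SE and filled points have an adjusted p under 0.05. The macrophage points of Zbp1, Cflar and Ripk2 lie between 3.54 and 3.77, whereas no osteoclast point passes 1.74.

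Between the cell types, all 8 genes were called without LPS, 2 of them (Casp8 and Mlkl) higher in osteoclasts and 6 lower. Of all genes tested 77.8% were called in this comparison, 38.8% above 0 and 39.0% below, so the count of 8 is not far from what the whole table gives. With LPS all 8 were called again, Casp8 and Fadd higher in osteoclasts and 6 lower, where 83.9% of all genes were called, 40.9% above 0 and 43.0% below. The libraries of the cell types did not overlap for any member in either comparison, against 81.4% of all genes without LPS and 83.6% with it. The median log2 difference of the members was -0.28 without LPS and -1.20 with it, and those of all genes were 0 and -0.02. For the difference of the LPS effects, 7 of the 8 were called, 6 below 0 and 1 above, where 56.6% of all genes were called, 30.0% below 0 and 26.6% above. The median of the members was -1.30, against -0.01 for all genes. With quantile normalization that of the members was -1.01, and with voom -0.72. Rescaling to TPM moved the median of all genes to 0.51 for this difference, to -0.38 between untreated cell types and to 0.12 between LPS-treated ones. The members' medians with TPM were -0.66, -0.72 and -1.13 in the same order. Of the called differences of the LPS effects, 47.0% were above 0 as deposited, 82.0% with TPM, 59.9% with quantile normalization and 36.7% among genes whose mean was 5 FPKM or more. For the untreated cell types 49.9% were above 0 as deposited and 29.9% with TPM. With TPM, 5 members were called below 0 and 2 above for the difference of the LPS effects; Ripk3 gained a call above 0 and Casp8 lost its call.

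**Figure D3:**
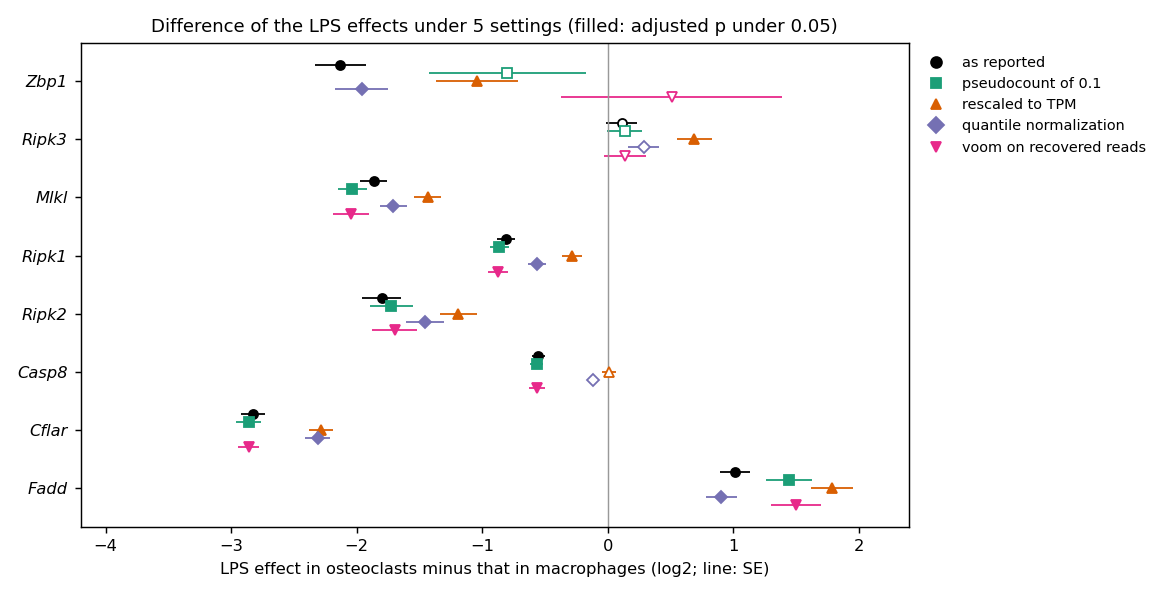
Difference of the LPS effects, osteoclast minus macrophage, for each gene (horizontal axis, log2) under 5 settings. Symbols are estimates, lines are SE and filled symbols have an adjusted p under 0.05. Cflar, Mlkl, Ripk2 and Ripk1 stay below 0 and Fadd above 0 under all 5, whereas Zbp1 spans -2.13 to 0.51 and Casp8 -0.57 to 0.0099.

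FPKM divides reads by the merged length of all exons of a gene, 12669 bases for Cflar and 2893 for Casp8. A comparison of levels between genes therefore depends on these lengths, whereas a fixed length cancels in the fold change of a ratio between groups. A ratio of 2 genes is also not changed by multiplying a library by a factor, as TPM does. The Cflar to Casp8 ratio compares the inhibitor with the caspase it pairs with, and was 0.454, 0.446 and 0.413 in untreated macrophages and 4.16, 4.16 and 4.06 in LPS-treated macrophages. In osteoclasts it was 0.165, 0.187 and 0.192 without LPS and 0.336, 0.316 and 0.393 with it. By FPKM, Cflar thus exceeded Casp8 in LPS-treated macrophages and in no other group. By reads, with no division by length, Cflar had 11125 and Casp8 5803 in untreated macrophages, and 92321 and 5109 with LPS. In osteoclasts the reads were 6818 for Cflar and 8608 for Casp8 without LPS, and 13237 and 8651 with it. The geometric mean ratio was 9.44-fold higher with LPS in macrophages and 1.92-fold higher in osteoclasts, and macrophages were 2.42-fold above osteoclasts without LPS and 11.9-fold above with it. In each of these comparisons the groups did not overlap, for which the exact permutation test gave p = 0.10 (two-sided, adjusted p = 0.11 over 8 tests), the smallest that 3 libraries against 3 allow. The test can therefore not pass 0.05 here.

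The Ripk3 to Casp8 ratio was 0.407, 0.347 and 0.329 in untreated macrophages and 0.247, 0.269 and 0.214 in LPS-treated macrophages. It was 0.0719, 0.0580 and 0.0656 in untreated osteoclasts and 0.0695, 0.0665 and 0.0786 in LPS-treated osteoclasts. Every osteoclast library was below every macrophage library, 5.54-fold by the geometric mean without LPS and 3.40-fold with it (exact permutation test, p = 0.10 for both). Among macrophages the ratio was lower with LPS in every library (log2 difference -0.57, exact permutation test, p = 0.10), while the osteoclast groups overlapped (log2 difference 0.14, exact permutation test, p = 0.40). Rescaling to TPM leaves this ratio as it is, whereas it moved the separate changes of Ripk3 and Casp8.

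**Figure D4:**
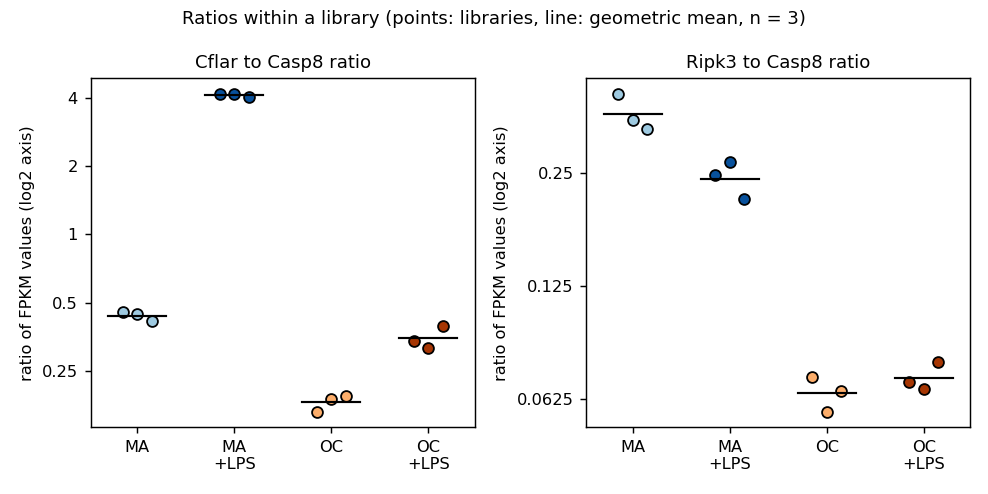
Ratio of the FPKM values of Cflar to Casp8 (left) and of Ripk3 to Casp8 (right) within each library, on log2 axes, in macrophages (MA) and osteoclasts (OC) without and with LPS. Points are libraries and lines geometric means (n = 3). The Cflar to Casp8 ratio is above 4 in LPS-treated macrophages and below 0.5 in the other groups, and the Ripk3 to Casp8 ratio is below 0.08 in every osteoclast library.

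By mean FPKM, untreated macrophages ranked the genes Casp8, Cflar, Ripk3, Ripk1, Ripk2, Mlkl, Fadd and Zbp1, and only the libraries of Ripk3 and Ripk1 overlapped among neighbours. LPS-treated macrophages ranked them Cflar, Ripk2, Casp8, Zbp1, Mlkl, Ripk1, Ripk3 and Fadd, with overlap of Casp8 and Zbp1. In untreated osteoclasts the order was Casp8, Cflar, Ripk1, Mlkl, Ripk3, Ripk2, Fadd and Zbp1, with overlap of Ripk3 and Ripk2. In LPS-treated osteoclasts it was Casp8, Cflar, Ripk2, Mlkl, Ripk1, Ripk3, Fadd and Zbp1, with overlap of Fadd and Zbp1. Casp8 led in 3 of the 4 groups, and Zbp1 was lowest in the same 3 groups. These orders depend on the exon lengths used for FPKM.

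The genes whose pattern was most like each member were found by Pearson's r of log2(FPKM + 1) over the 12 libraries among 6430 genes whose mean was 5 FPKM or more. The libraries form 4 groups, so r mainly describes the group means and carries no p. Cflar was closest to Map3k8, Junb and Peli1 (highest r 0.999), Ripk2 to Slc2a6, Ifih1 and Irgm1 (highest r 0.999) and Zbp1 to Arhgef3, Phf11d and Hif1a (highest r 0.999). Mlkl was closest to Gbp7, Nt5c3 and Pnpt1 (highest r 0.997), and Ripk1 to Ctdnep1, Clint1 and Bach1 (highest r 0.995). Ripk3 was closest to Fgd2, Ap1s2 and Thbs1 (highest r 0.994) and Casp8 to Tgoln1, Ppargc1b and Acadl (highest r 0.995). Fadd had the lowest likeness, with r of 0.960 to Utp6, then Exosc4 and Ctdp1.

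Death receptors, their ligands and the adapters Tradd and Traf2 act upstream of RIPK1, FADD and caspase-8. Of 9 listed, 8 were tested, and Fasl was not. In macrophages 7 rose with LPS and 0 fell (6 and 1 with TPM), with a median log2 change of 2.39, and in osteoclasts 5 rose and 1 fell, with a median of 0.91 (0.02 and 0.01 for all genes tested). Of all genes tested 69.9% were called in macrophages, 36.8% above 0, and 17.7% in osteoclasts, 11.1% above 0. Fas, the Fas ligand receptor, rose from 2.75 ± 0.272 to 44.1 ± 5.23 FPKM (SD, n = 3) in macrophages and from 0.752 ± 0.152 to 4.55 ± 1.33 FPKM in osteoclasts. Tnf, the ligand that starts RIPK1 signalling at its receptor, rose 27.0-fold in macrophages (adjusted p = 2.58e-11) and 18.5-fold in osteoclasts (adjusted p = 3.28e-09). Its receptor gene Tnfrsf1a rose in macrophages (log2 change 0.87, adjusted p = 2.60e-10) and fell in osteoclasts (log2 change -0.22, adjusted p = 5.87e-04). For the difference of the LPS effects 6 were below 0 and 0 above (5 and 1 with TPM), where 56.6% of all genes were called. That of Tnf, -0.71 (adjusted p = 0.00943), was lost with TPM (-0.04, adjusted p = 0.86) and turned over with quantile normalization (0.11, adjusted p = 0.638).

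Of 6 pattern receptors and adapters, 3 rose and 1 fell with LPS in each cell type (3 and 2 in macrophages with TPM, 4 and 1 with quantile normalization). Of all genes tested, 69.9% were called in macrophages and 17.7% in osteoclasts, so the macrophage count is near the background. The median log2 changes of the list were 1.57 in macrophages and 0.62 in osteoclasts, a gap that depended on the setting. They were 1.16 and 0.97 with TPM, and 1.53 and 0.55 with quantile normalization. With a pseudocount of 0.1 they were 1.83 and 1.37, and with voom 1.87 and 1.63. Nod1 and Nod2, the sensors that signal through RIPK2, were among those that rose. Nod2 went from 0.768 ± 0.114 to 32.1 ± 1.30 FPKM (SD, n = 3) in macrophages and from 0.320 ± 0.0315 to 2.22 ± 0.535 FPKM in osteoclasts. Tlr3, a sensor of double-stranded RNA that uses TRIF, rose 10.9-fold in macrophages and 5.31-fold in osteoclasts (adjusted p = 6.43e-11 and 1.72e-05). Tlr4, the LPS receptor, fell in both (log2 change -0.50, adjusted p = 2.34e-04, and -0.51, adjusted p = 0.00147) and was 3.28 times as high in untreated macrophages as in untreated osteoclasts. Ticam1, which encodes TRIF, was not called for LPS in either cell type and was 2.71-fold higher in untreated osteoclasts (log2 difference 1.29, adjusted p = 9.33e-09). Of the 6, 5 were lower in osteoclasts than in macrophages both without and with LPS, and Ticam1 was the 1 that was higher, where 77.8% of all genes were called without LPS, 39.0% below 0, and 83.9% with it, 43.0% below 0. With quantile normalization 4 were lower without LPS, the call of Nod2 being lost. For the difference of the LPS effects 3 were below 0 and 0 above, against 3 and 3 with TPM, beside 56.6% of all genes called as deposited.

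The ubiquitin enzymes and kinases that act on RIPK1 decide whether it signals or kills, and 20 were listed. In macrophages 16 rose and 2 fell with LPS, against 10 and 8 with TPM and 13 and 3 with quantile normalization. In osteoclasts 9 rose and 0 fell, and 11 were not called, against 8 and 1 with TPM, 9 and 2 with quantile normalization and 9 and 1 with voom. The median log2 changes were 0.86 and 0.10, but 0.25 and 0.04 with TPM, and 0.54 and 0.04 with quantile normalization. The shares of all genes called were 69.9% and 17.7% as deposited. Tnfaip3, which encodes the ubiquitin editor A20, rose from 6.27 ± 0.159 to 502 ± 9.36 FPKM (SD, n = 3) in macrophages and from 19.6 ± 1.02 to 44.3 ± 0.624 FPKM in osteoclasts. Its LPS effects differed by -4.98 (SE 0.06, adjusted p = 1.86e-13). The ubiquitin ligases of the cIAP family, Birc2 and Birc3, were both higher in osteoclasts before LPS (log2 differences 0.99, adjusted p = 2.95e-08, and 1.19, adjusted p = 1.59e-10) and lower after it (log2 differences -1.13, adjusted p = 6.57e-09, and -1.83, adjusted p = 2.66e-12). Tnfaip3 had the same turn, from 1.51 (adjusted p = 6.48e-12) to -3.47 (adjusted p = 7.95e-15). Without LPS 7 of the 20 were higher and 10 lower in osteoclasts (5 and 15 with TPM), and with LPS 2 were higher and 18 lower (2 and 14 with TPM, 3 and 13 with quantile normalization). Of all genes tested 77.8% were called without LPS and 83.9% with it, 43.0% below 0 in the latter case. For the difference of the LPS effects 15 were below 0 and 1 above, against 11 and 7 with TPM, where 56.6% of all genes were called as deposited.

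Among 7 death effectors downstream of caspase-8, 3 rose and 1 fell with LPS in macrophages (2 and 4 with TPM, 3 and 3 with quantile normalization), and 3 rose and 0 fell in osteoclasts. The median log2 changes were 0.10 and 0.13, but -0.52 and 0.06 with TPM, and 0.12 and 0.04 with quantile normalization. With 69.9% of all genes called in macrophages, 4 of 7 is not above the background, and in osteoclasts 17.7% of all genes were called. Gsdmd, which encodes the pore former of pyroptosis, rose 2.74-fold in macrophages (adjusted p = 7.85e-10) and was not called in osteoclasts (log2 change 0.13, adjusted p = 0.183). Casp1, the caspase of the inflammasome, rose 5.30-fold in macrophages (adjusted p = 1.55e-09) and 1.48-fold in osteoclasts (adjusted p = 0.00529). Casp6 was not called for LPS in either cell type and was 2.35-fold higher in untreated osteoclasts (adjusted p = 6.25e-09). Like Casp8 and Gsdmd, it was higher in osteoclasts before LPS, whereas the other 5 effectors were lower. Of all genes tested 77.8% were called in that comparison, 38.8% above 0 and 39.0% below.

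The last list held 16 regulators of RIPK3, MLKL and ZBP1. In macrophages 11 rose and 2 fell with LPS, but 5 and 9 with TPM and 5 and 8 with quantile normalization, so the direction of the list in macrophages depends on the scaling. In osteoclasts 5 rose and 1 fell, but 3 and 2 with TPM and with quantile normalization. The median log2 changes were 0.49 in macrophages and 0.09 in osteoclasts, but -0.14 and 0.02 with TPM, and -0.17 and -0.02 with quantile normalization. The shares of all genes called were 69.9% and 17.7% as deposited. Adar, whose product edits double-stranded RNA and limits ZBP1 activation, rose 5.38-fold in macrophages (adjusted p = 3.72e-11) and 1.58-fold in osteoclasts (adjusted p = 1.52e-04). Ippk, an inositol phosphate kinase whose product is a cofactor of MLKL, fell in macrophages (log2 change -0.68, adjusted p = 2.46e-06) and rose in osteoclasts (log2 change 0.46, adjusted p = 5.81e-04). Its LPS effects differed by 1.14 (SE 0.10, adjusted p = 1.02e-06), the same direction as for Fadd. Pgam5, a mitochondrial phosphatase, was not called for LPS and was 2.43-fold higher in untreated osteoclasts (adjusted p = 1.86e-08). For the difference of the LPS effects 12 of the 16 were below 0 and 1 above, against 5 and 8 with TPM and 4 and 6 with quantile normalization, where 56.6% of all genes were called as deposited.

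**Figure D5:**
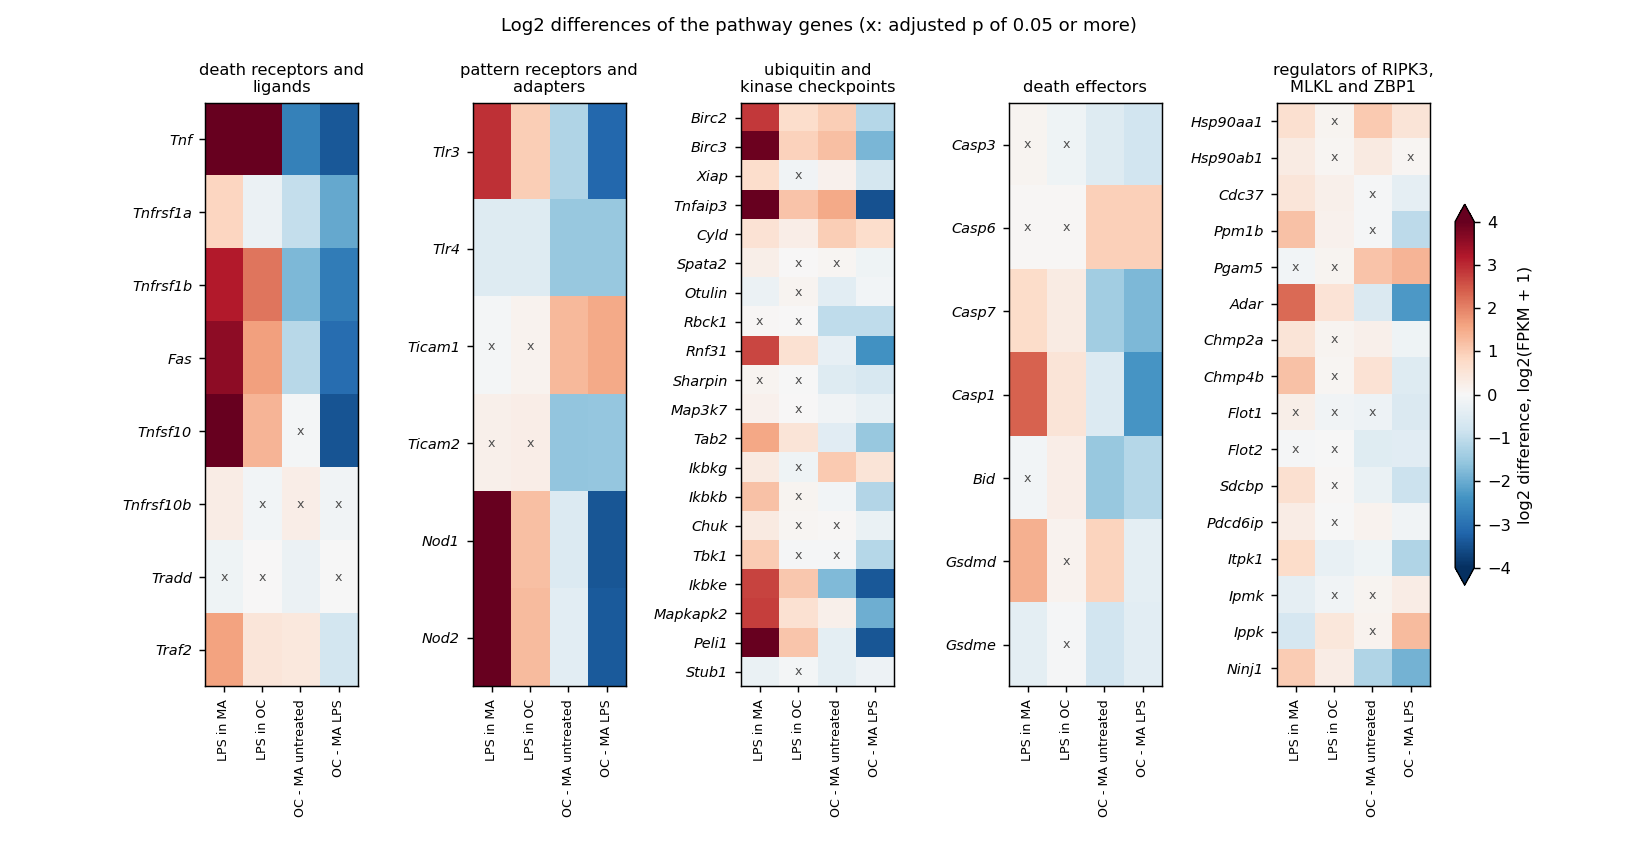
Log2 differences of log2(FPKM + 1) for the tested genes of 5 pathway lists (rows) in 4 comparisons (columns): LPS effect in macrophages (MA), LPS effect in osteoclasts (OC), and osteoclasts minus macrophages without and with LPS. Red is above 0, blue below 0, colours end at 4 and -4, and a cross marks an adjusted p of 0.05 or more. Tnfaip3, Birc3 and Birc2 are red without LPS and blue with it in the comparison of the cell types.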

How the data were processed

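RNA of 12 libraries was sequenced in 4 groups of 3 taken from the sample titles: macrophages and osteoclasts, each untreated or with LPS. Per the labels' protocols, the NEBNext Ultra RNA kit was used. The submitters' processing notes name fastp, STAR, featureCounts, DESeq2 and build mm10, with no versions. The authors deposited FPKM values for 54532 Ensembl genes. These were whole multiples of a step per gene that fitted the merged exon length of GENCODE M21 for 25015 of 25854 genes above 0, or 96.8% (tolerance 0.02 for a whole read). The library denominators departed by at most 5.1e-05% from median-of-ratios size factors times the mean read total. That annotation and scaling are inferred from the values, so a change is relative to the typical gene.

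Limma 3.58.1 in R 4.3.3 was fitted to log2(FPKM + 1) with a variance trend over all 12 libraries and 4 group means. The filter of 1 FPKM in 3 or more libraries left 11335 genes. There were 5 contrasts: LPS against none within macrophages and within osteoclasts, osteoclast minus macrophage without and with LPS, and the difference of the LPS effects. Two-sided p-values were adjusted over all 11335 genes (Benjamini-Hochberg). The pseudocount of 1 understates changes of low genes. Ratios of genes were tested by exact permutation (scipy 1.17.1). Only the limma fit, for the LPS effects and their difference, was run on simulated counts. Few genes were changed there, so the run does not cover the broad changes seen here, the ratio tests or the alternatives. The members and gene lists were chosen with earlier results of these data known. Each member is described, any listed gene could be named, and those named were picked with their values in view. Alternatives were no filter, a mean of 5 FPKM or more, a pseudocount of 0.1, TPM, quantile normalization, voom on the recovered reads, only the groups compared, no variance trend, a replicate block and each library left out. The Zbp1 alternatives that combine a left-out library with another setting were chosen after seeing the data. Exon overlaps with other genes were examined for the 8 genes only. Each library was counted as 1 sample. Replicates of a group differed by more than sampling noise (chi-square per degree of freedom from 2.54 to 11.55), which cannot show whether they came from separate cultures.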

Additional observations from a re-analysis of the deposited data

Results flagged for a closer look

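Macrophages and osteoclasts responded differently to LPS for 7 of the 8 genes, by limma's test of the difference itself, where 56.6% of all genes tested were called. Written as osteoclast minus macrophage on the log2(FPKM + 1) scale, the difference was -2.8256 for Cflar, -2.1294 for Zbp1, -1.8647 for Mlkl, -1.8001 for Ripk2, -0.8064 for Ripk1 and -0.5512 for Casp8. For Fadd it was 1.0138. Cflar, Zbp1, Mlkl and Ripk2 were called higher with LPS in both cell types, and Ripk1 and Casp8 in macrophages only. Fadd was called in macrophages, where it fell by 0.79 on the log2 scale. The differences of Zbp1 and Casp8 depend on the setting, as given with the processing below.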

How the results depend on the processing

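Of 829 values of single genes under an alternative, 814 kept their direction and side of the threshold, 6 reversed, 3 of which also lost their call, a further 5 lost a call, which makes 8 calls lost, and 4 gained one. The LPS effect on Casp8 in macrophages became -0.11 with TPM and -0.0036 with quantile normalization, and its difference between cell types 0.0099 with TPM. That of Zbp1 became 0.51 with voom. The uncalled LPS effect on Ripk3 in macrophages lay between -0.066 and 0.047 with 1 library left out. With a mean of 5 FPKM or more, which leaves fewer genes and not Fadd, the genes called were 4851 for LPS in macrophages (7921 as reported), 5427 for untreated cell types (8822), 5694 for LPS-treated ones (9509) and 4018 for the difference of the LPS effects (6413). With 1 library left out they were 7500 to 8012 for LPS in macrophages, 1432 to 2031 for LPS in osteoclasts, 8495 to 8874 and 9307 to 9488 between cell types without and with LPS, and 6049 to 6345 for the difference. The members called were 7, 4, 8, 8 and 7 in each of these fits.

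All 64 alternatives of the gene ratios kept their direction. Many of these could not have reversed, because leaving out a library cannot turn a difference between groups that do not overlap. Only the Ripk3 to Casp8 ratio with and without LPS in osteoclasts had overlapping groups. Its log2 difference lay between 0.0546 and 0.210 with a library left out. The replicate numbers did not pair the libraries, since deviations of same-numbered libraries correlated between -0.0702 and 0.104. A replicate block called 7914 genes for LPS in macrophages, 1930 in osteoclasts and 6422 for the difference, and changed no call of a member. Depth limits the low genes: Zbp1 had 0 to 22 reads per library in untreated osteoclasts and Fadd 54 to 87 in LPS-treated macrophages.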
